A study of Mus musculus with 8 samples.

Results

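Integrin and laminin subunit genes were followed in kidneys of mice injured with aristolochic acid, comparing mice labelled CDH11-/- with mice labelled CDH11+/+. The members are all protein-coding genes whose symbol is Itga or Itgb followed by a number (with at most 1 further letter) or by a single letter, and Lama, Lamb or Lamc followed by a number. This gave 38 genes of the 42256 in the deposited table, namely 18 integrin alpha, 9 integrin beta and 11 laminin chains. Itgb1bp1, Itgb1bp2, Itgb3bp and Itgbl1, which share the prefix, are not subunits by this rule and were left out. Kidney RNA came from 8 adult males (129S1/Sv x C57BL/6, a mixed background), of which 4 were labelled CDH11-/- and 4 CDH11+/+. CDH11 is cadherin-11, an adhesion protein of mesenchymal cells, and the labels do not say how its allele was made. All 8 mice had received 3 mg/kg aristolochic acid on each of 5 days and were killed 2 weeks after the final dose, so there were no uninjured kidneys. The series is titled for Unx/AngII injury instead, so the injury given here is that of the sample labels.

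Integrins are receptors of an alpha and a beta chain that tie the cytoskeleton to the matrix or to other cells, and the alpha chain largely sets which ligand is bound. Laminins are cross-shaped trimers of an alpha, a beta and a gamma chain that assemble into the sheet of every basement membrane, together with type IV collagen, nidogen and perlecan. In the kidney, laminin of alpha5, beta2 and gamma1 chains builds the mature glomerular basement membrane and holds podocytes through integrin alpha3 beta1, while alpha8 beta1 on mesenchyme binds nephronectin in kidney development. Integrins of the alphav group bind the RGD motif of matrix proteins and can release active TGF-beta, and the beta2 and beta7 integrins belong to leukocytes.

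Libraries held 10675309 to 18539479 counts. Cdh11, the targeted gene, had 89.9, 91.3, 113 and 117 CPM in libraries labelled CDH11-/-, against 75.6, 58.0, 61.7 and 59.0 CPM in libraries labelled CDH11+/+. CPM are counts-per-million values on TMM-scaled library sizes. All libraries labelled CDH11-/- were thus above all libraries labelled CDH11+/+, and the log2 fold change was 0.69 ± 0.11 (± SE, adjusted p = 0.0243 in edgeR), a call that held in 11 of 18 alternative fits (adjusted p up to 0.544). With the authors' factors as offsets the value was 0.24. Because the targeted transcript was not lower, each direction below is between libraries as labelled. Kidney markers were abundant in all 8 libraries. Summed CPM of 10 proximal tubule markers were 2378 to 6415 in libraries labelled CDH11-/-, 5519 to 8114 in CDH11+/+ replicates 2 to 4 and 2706 in CDH11+/+ replicate 1. Replicates 1 and 4 of the CDH11+/+ label thus lay inside the CDH11-/- range.

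None of the tested integrin or laminin subunits passed the test for a difference between the labelled genotypes with all 8 libraries. Of the 38 genes, 36 passed the filter on low counts, and of these 0 rose and 0 fell (edgeR quasi-likelihood test, Benjamini-Hochberg adjusted p under 0.05 over 15852 genes). Over all tested genes 0.719% were called, 0.372% higher and 0.347% lower, so a count of 0 among 36 is close to that background. DESeq2 also called 0 of them, against 2.79% of all genes, and limma-voom with quality weights called 3, against 4.28%. Their adjusted p in edgeR ran from 0.159 to 0.984, and 22 log2 fold changes were positive and 14 negative, where 47.8% of all tested genes were positive. With 1 surrogate variable in the fit, 17 were positive. The median was 0.08, against −0.01 over all tested genes. At an unadjusted p under 0.05 there were 10 members, 7 higher and 3 lower, or 27.8%, where 14.1% of all tested genes reached that level (6.62% higher and 7.46% lower). The libraries of the 2 labels overlapped in all 36 members, while over all tested genes 7.33% did not overlap.

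The data were precise enough to bound many of these differences. Standard errors ran from 0.06 to 0.52 on the log2 scale, with a median of 0.12. The 95% interval of the fold change lay inside 1.5-fold in either direction for 25 of the 36 members and inside 2-fold for 35, while 70.3% of all tested genes had an interval inside 1.5-fold and 88.2% inside 2-fold. Itga11, with 5 to 33 counts per library, was the gene whose interval reached beyond 2-fold (log2 −2.27 to 0.01). In bulk tissue, fewer cells of a type and less RNA per cell cannot be told apart, here or in any result below.

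**Figure D1:**
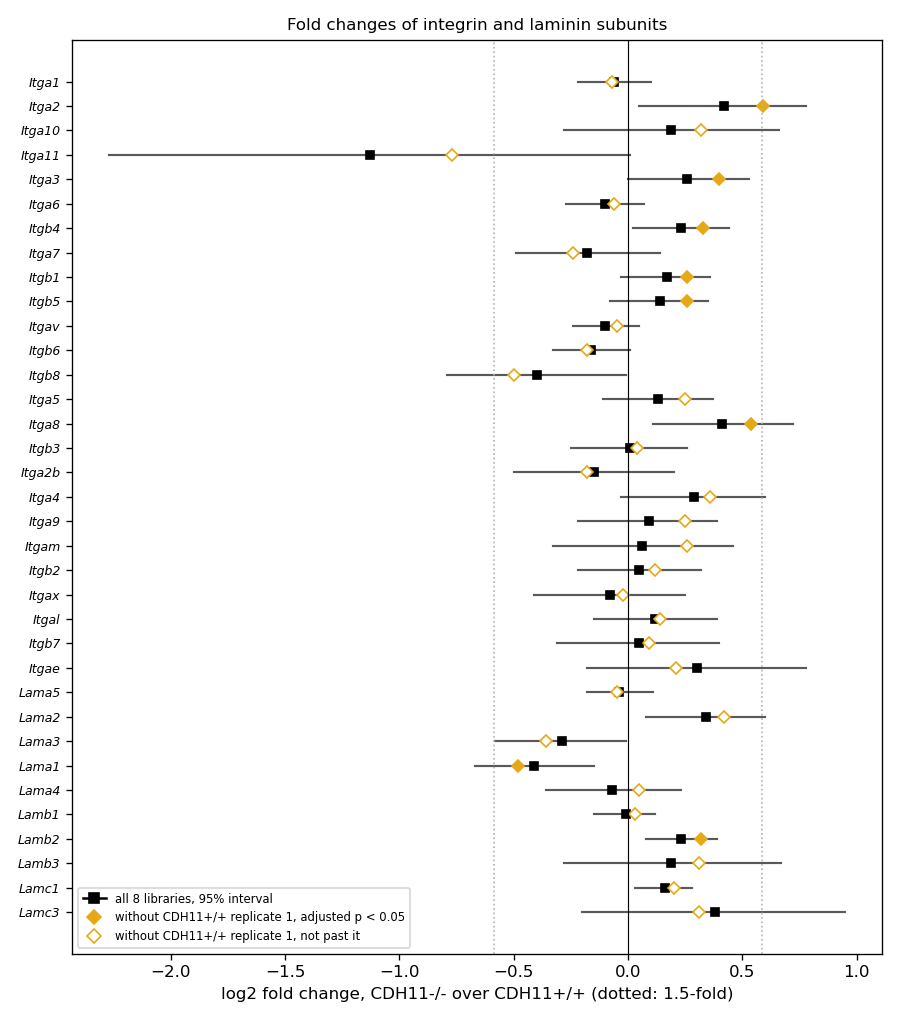
Log2 fold change of 35 of the 36 tested subunits (x axis, CDH11-/- over CDH11+/+) with genes down the page by role. Black squares and lines are the estimate and 95% interval from all 8 libraries, diamonds the estimate without CDH11+/+ replicate 1, filled where that fit passed adjusted p under 0.05. Estimates lie between −1.13 and 0.42 and 0 of 36 passed with all libraries, while 8 diamonds are filled.

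One library weighed heavily on this. CDH11+/+ replicate 1 was the highest of the 4 libraries labelled CDH11+/+ in 23 of the 36 members, or 63.9%, where it was the highest in 32.3% of all tested genes. This library lay inside the range of the libraries labelled CDH11-/- in 26 of the 36 members, and in 56.3% of all tested genes. Without it, 7 members rose and 1 fell (edgeR, adjusted p under 0.05), 22.2% of the members, while 6.25% of all genes tested in that fit were called. At an unadjusted p under 0.05 there were then 18 of 36 members, against 22.0% of all genes. The labels no longer overlapped in 13 of 36 (36.1%, against 20.5%), and the median log2 fold change was 0.17. Leaving out any other single library gave 0 calls among the members with edgeR, where 0.162% to 0.48% of all genes were called, and 4 to 10 members at an unadjusted p under 0.05. The 7 that rose without it were Itga2, Itga3, Itga8, Itgb1, Itgb4, Itgb5 and Lamb2, and Lama1 fell. Nothing in the labels sets this library apart, so results are given with it, and without it where the call differs. It had the fewest counts of all libraries, 10675309. Its summed injured tubule markers were 3905 CPM, against 2863 to 3200 in the other CDH11+/+ libraries. Its thick ascending limb and distal tubule markers were 2829 CPM, against 4543 to 5207 there. Its B and plasma cell markers, at 12.3 CPM, lay inside the range of the other CDH11+/+ libraries, 10.6 to 106 CPM. Whether the count total or the cell make-up contributed was not tested.

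Compared per kb of exon, the levels of these genes spanned more than 2 orders of magnitude on the CPM scale. Itgb1, the beta chain shared by most matrix-binding integrins, was the highest at 154 ± 11.5 in libraries labelled CDH11-/- and 137 ± 16.0 in libraries labelled CDH11+/+ (CPM per kb, SD, n = 4 each). Itgb5, a partner of the alphav chain, came next at 89.2 ± 4.40 in libraries labelled CDH11-/- and 81.2 ± 12.4 in libraries labelled CDH11+/+ (CPM per kb, SD, n = 4 each), and Itga3 was the most abundant alpha chain at 48.9 ± 4.44 in libraries labelled CDH11-/- and 40.7 ± 7.44 in libraries labelled CDH11+/+ (CPM per kb, SD, n = 4 each). The 36 genes were ordered by mean level over all 8 libraries. For 2 of the 35 neighbouring pairs the ranges over the 8 libraries were apart (Itgb1 above Itgb5, and Itgb5 above Itga3). The ranges of the other 33 pairs overlapped, which does not give their order within a library. Lamb1, Itgb2, Itgav, Lama5, Itgam and Lamb2 followed, between 33.1 and 19.2 CPM per kb. At the low end Itga11, an alpha chain of fibroblasts that binds collagen, had 0.256 CPM per kb. Lengths are those of all annotated exons merged, so genes with long alternative ends are understated. Below the filter, Itgad had 1 to 6 counts per library and Itgb2l, a beta2-like gene, 1 count in all.

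**Figure D2:**
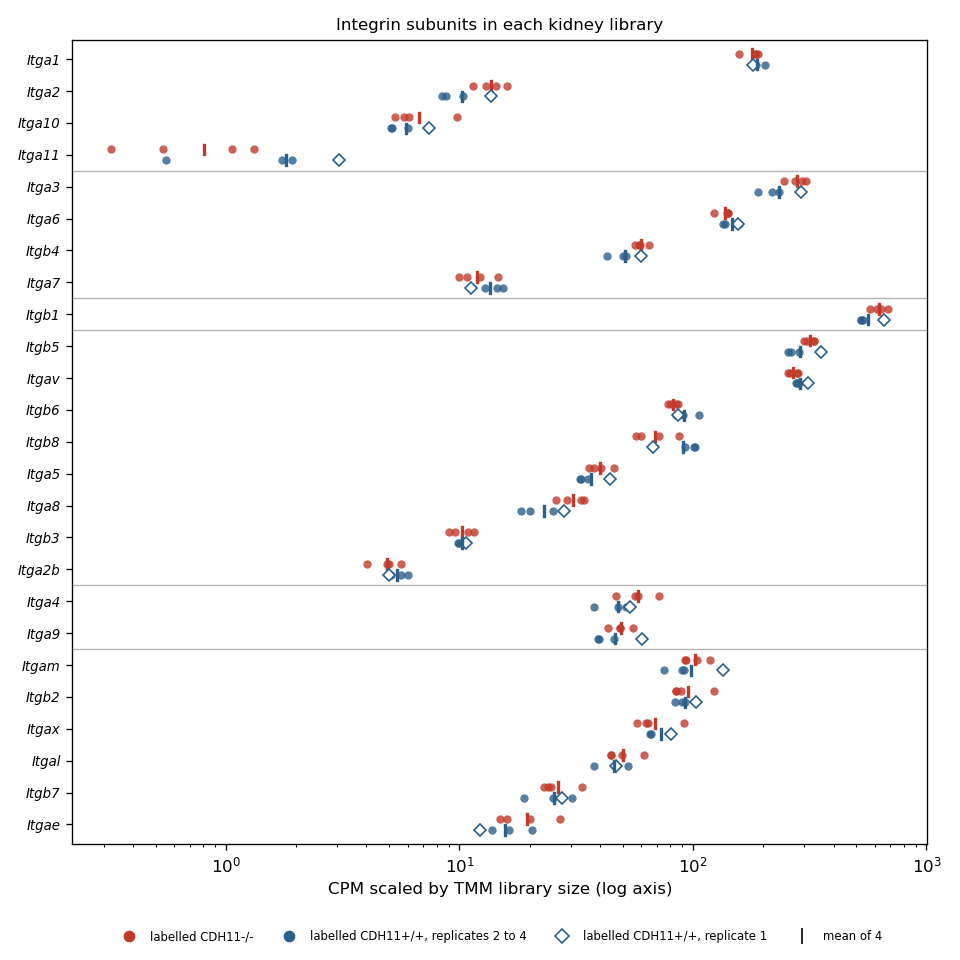
CPM of the 25 tested integrin subunits in each library (x axis, log scale), with genes down the page grouped by role and grey lines between roles. Red circles are libraries labelled CDH11-/-, blue circles CDH11+/+ replicates 2 to 4, open diamonds CDH11+/+ replicate 1 and bars the mean of 4. The diamond often sits among or above the red circles, as in Itgb1 at 657 CPM. It lay inside their range in 18 of the 25 subunits, and in 56.3% of all tested genes.

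Itgb1 (ENSMUSG00000025809, chromosome 8, 128685654 to 128733200, plus strand) encodes the beta1 chain and had 614, 575, 641 and 686 CPM in libraries labelled CDH11-/-, against 657, 534, 525 and 523 CPM in libraries labelled CDH11+/+. Replicate 1 of the CDH11+/+ group lay among the libraries labelled CDH11-/-, and the other 3 lay below all of them. The log2 fold change was 0.17 ± 0.09 (± SE, adjusted p = 0.431 in edgeR), with a 95% interval of −0.03 to 0.36. Without replicate 1 it was 0.26 with an edgeR adjusted p = 0.04997, on the edge of the threshold. Itgb1 lies on the same chromosome as Cdh11, 25.9 Mb away.

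Among collagen-binding alpha chains (Itga1, Itga2, Itga10 and Itga11), 2 log2 fold changes were positive and 2 negative. Itga2 (ENSMUSG00000015533, chromosome 13, 114833081 to 114932100, minus strand), a collagen receptor of epithelium and platelets, had 13.0, 11.4, 14.4 and 16.0 CPM in libraries labelled CDH11-/-, against 13.7, 8.74, 8.39 and 10.4 CPM in libraries labelled CDH11+/+. Here too replicate 1 stood with the libraries labelled CDH11-/-, and replicates 2 to 4 of its own label were below them. Its log2 fold change was 0.42 ± 0.17 (± SE, adjusted p = 0.288 in edgeR), and 0.59 without replicate 1 (edgeR adjusted p = 0.0352). Itga1, a collagen IV receptor found on mesangial and endothelial cells, averaged 179.6 ± 14.6 CPM in libraries labelled CDH11-/- and 188 ± 11.4 CPM in libraries labelled CDH11+/+ (SD, n = 4 each). Its interval of −0.22 to 0.10 on the log2 scale lay inside 1.5-fold in either direction. Itga10, a collagen receptor of cartilage, was low at 6.74 ± 2.04 CPM in libraries labelled CDH11-/- and 5.91 ± 1.06 CPM in libraries labelled CDH11+/+ (SD, n = 4 each). Itga11 was at 0.810 ± 0.460 CPM in libraries labelled CDH11-/- and 1.82 ± 1.02 CPM in libraries labelled CDH11+/+ (SD, n = 4 each), and its log2 fold change of −1.13 ± 0.52 (± SE, adjusted p = 0.36 in edgeR) rests on few counts.

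Laminin receptors include Itga3, Itga6, Itga7 and the beta4 chain Itgb4, which pairs with alpha6 in hemidesmosomes. Itga3 (ENSMUSG00000001507, chromosome 11, 95044474 to 95076801, minus strand) had 304, 246, 292 and 274 CPM in libraries labelled CDH11-/-, against 290.5, 218, 189.6 and 233 CPM in libraries labelled CDH11+/+. The 3 lowest values were CDH11+/+ replicates 2, 3 and 4, and replicate 1 was above 2 of the libraries labelled CDH11-/-. The fold change was 0.26 ± 0.12 (± SE, adjusted p = 0.36 in edgeR) on the log2 scale, and 0.40 without replicate 1 (edgeR adjusted p = 0.0243). Itgb4 (ENSMUSG00000020758, chromosome 11, 115974709 to 116008412, plus strand) had 64.9, 56.6, 59.6 and 58.6 CPM in libraries labelled CDH11-/-, against 60.2, 50.1, 42.8 and 51.5 CPM in libraries labelled CDH11+/+. Again the 3 lowest values were CDH11+/+ replicates 2 to 4, and replicate 1 was above 3 of the libraries labelled CDH11-/-, with a log2 fold change of 0.23 ± 0.09 (± SE, adjusted p = 0.301 in edgeR) and, without replicate 1, of 0.33 (edgeR adjusted p = 0.0367). Its partner Itga6 did not share the sign of that difference, with 137 ± 9.34 CPM in libraries labelled CDH11-/- and 146 ± 12.4 CPM in libraries labelled CDH11+/+ (SD, n = 4 each) and a log2 fold change of −0.10 ± 0.08 (± SE, adjusted p = 0.594 in edgeR). Whether the Itga6 and Itgb4 differences differ from each other was not tested. Itga7, a laminin receptor of muscle, averaged 11.9 ± 2.04 CPM in libraries labelled CDH11-/- and 13.5 ± 1.85 CPM in libraries labelled CDH11+/+ (SD, n = 4 each).

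Of the 8 chains of RGD-binding integrins, 4 log2 fold changes were positive and 4 negative. Itga8 (ENSMUSG00000026768, chromosome 2, 12106632 to 12301922, minus strand), the alpha8 chain of mesangial and interstitial mesenchyme, had 28.9, 25.9, 34.1 and 33.3 CPM in libraries labelled CDH11-/-, against 28.1, 18.4, 25.2 and 20.1 CPM in libraries labelled CDH11+/+. Replicate 1 of the CDH11+/+ group was above 1 library labelled CDH11-/-, and replicates 2 to 4 were below all of them. The log2 fold change was 0.41 ± 0.14 (± SE, adjusted p = 0.221 in edgeR), the smallest p among integrins. It passed in 2 of 18 alternatives, with limma-voom (0.53, adjusted p = 0.0375) and without replicate 1 (0.54, edgeR adjusted p = 0.0326). Pdgfra, a fibroblast receptor gene, had 57.5, 63.4, 75.1 and 63.3 CPM in libraries labelled CDH11-/-, against 55.4, 40.1, 48.5 and 41.3 CPM in libraries labelled CDH11+/+. Pdgfrb, from the same list, averaged 132 ± 10.6 CPM in libraries labelled CDH11-/- and 134 ± 17.9 CPM in libraries labelled CDH11+/+ (SD, n = 4 each). Of the 8 fibroblast and pericyte markers 6 log2 fold changes were positive and 2 negative, with a median of 0.25, and 0 passed in edgeR. Summed over these markers the level was 747 to 1006 CPM in libraries labelled CDH11-/-. It was 695 to 751 CPM in CDH11+/+ replicates 2 to 4 and 932 CPM in CDH11+/+ replicate 1. The part of these markers in the Itga8 value was not tested.

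The alphav chain and its beta partners had log2 fold changes of both signs, and none passed the test. Itgav averaged 269 ± 13.9 CPM in libraries labelled CDH11-/- and 288 ± 16.5 CPM in libraries labelled CDH11+/+ (SD, n = 4 each), or −0.10 ± 0.07 (± SE, adjusted p = 0.54 in edgeR) on the log2 scale. Itgb5 (ENSMUSG00000022817, chromosome 16, 33829665 to 33949338, plus strand) had 329, 300.2, 331 and 307 CPM in libraries labelled CDH11-/-, against 352, 255, 264 and 283 CPM in libraries labelled CDH11+/+. CDH11+/+ replicate 1 held the highest of all 8 values and replicates 2 to 4 of that label the 3 lowest, with a log2 fold change of 0.14 ± 0.10 (± SE, adjusted p = 0.568 in edgeR), or 0.26 without replicate 1 (edgeR adjusted p = 0.0449). Itgb6, an epithelial beta chain that activates latent TGF-beta, averaged 82.4 ± 3.62 CPM in libraries labelled CDH11-/- and 91.9 ± 9.93 CPM in libraries labelled CDH11+/+ (SD, n = 4 each), or −0.16 ± 0.08 (± SE, adjusted p = 0.386 in edgeR) on the log2 scale. Itgb8 (ENSMUSG00000025321, chromosome 12, 119158022 to 119238802, minus strand), which has the same role with alphav, had 56.9, 87.2, 71.7 and 59.9 CPM in libraries labelled CDH11-/-, against 67.2, 102, 101 and 92.5 CPM in libraries labelled CDH11+/+. Its CDH11+/+ replicates 2 to 4 were above every library labelled CDH11-/-, and replicate 1 was among them. The log2 fold change was −0.40 ± 0.17 (± SE, adjusted p = 0.347 in edgeR), and −0.50 without replicate 1 (edgeR adjusted p = 0.0726), short of the threshold in both fits. Itgb3, which pairs with alphav or with the platelet chain encoded by Itga2b, averaged 10.3 ± 1.15 CPM in libraries labelled CDH11-/- and 10.2 ± 0.389 CPM in libraries labelled CDH11+/+ (SD, n = 4 each). Itga5, of the fibronectin receptor, was at 40.0 ± 4.51 CPM in libraries labelled CDH11-/- and 36.5 ± 5.29 CPM in libraries labelled CDH11+/+ (SD, n = 4 each), or 0.13 ± 0.11 (± SE, adjusted p = 0.634 in edgeR) on the log2 scale.

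Of 8 leukocyte chains 6 were tested, and their log2 fold changes ran from −0.08 to 0.30. With edgeR, 0 of those reached an unadjusted p under 0.05, where 14.1% of all tested genes did. For 5 of the 6 the 95% interval lay inside 1.5-fold, as it did for 70.3% of all tested genes. Itgam, the CD11b chain of macrophages and neutrophils, had 93.6, 92.7, 104 and 118 CPM in libraries labelled CDH11-/-, against 135, 89.9, 75.5 and 91.8 CPM in libraries labelled CDH11+/+. The highest value of all was CDH11+/+ replicate 1, and without it the log2 fold change was 0.26 (edgeR adjusted p = 0.138), against 0.06 ± 0.17 (± SE, adjusted p = 0.908 in edgeR) with it. Itgax, the CD11c chain of dendritic cells and kidney macrophages, averaged 69.0 ± 15.2 CPM in libraries labelled CDH11-/- and 72.8 ± 8.42 CPM in libraries labelled CDH11+/+ (SD, n = 4 each). Itgal, the LFA-1 chain of lymphocytes, averaged 50.1 ± 7.93 CPM in libraries labelled CDH11-/- and 46.1 ± 6.23 CPM in libraries labelled CDH11+/+ (SD, n = 4 each). For their shared chain Itgb2, CDH11-/- replicate 4 was the highest of its group, and the group means were 95.5 ± 18.4 CPM in libraries labelled CDH11-/- and 92.2 ± 7.91 CPM in libraries labelled CDH11+/+ (SD, n = 4 each). Itgae, the CD103 chain that binds E-cadherin, was at 19.4 ± 5.43 CPM in libraries labelled CDH11-/- and 15.7 ± 3.55 CPM in libraries labelled CDH11+/+ (SD, n = 4 each), and its partner Itgb7 at 26.3 ± 4.92 CPM in libraries labelled CDH11-/- and 25.5 ± 4.80 CPM in libraries labelled CDH11+/+ (SD, n = 4 each). Itga4 averaged 58.3 ± 10.2 CPM in libraries labelled CDH11-/- and 47.8 ± 7.24 CPM in libraries labelled CDH11+/+ (SD, n = 4 each), and Itga9 averaged 49.0 ± 5.04 CPM in libraries labelled CDH11-/- and 46.2 ± 9.83 CPM in libraries labelled CDH11+/+ (SD, n = 4 each). Their products bind VCAM-1 and other ligands, and the log2 fold changes were 0.29 ± 0.14 (± SE, adjusted p = 0.404 in edgeR) for Itga4 and 0.09 ± 0.14 (± SE, adjusted p = 0.82 in edgeR) for Itga9.

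Markers of the cells that carry these integrins were examined beside them. Ptprc, the pan-leukocyte gene CD45, had 166, 169, 184 and 231 CPM in libraries labelled CDH11-/-, against 194, 157, 160.2 and 165 CPM in libraries labelled CDH11+/+. Summed CPM of 10 macrophage and dendritic cell markers were 1718 to 2141 in libraries labelled CDH11-/-, 1488 to 1611 in CDH11+/+ replicates 2 to 4 and 2166 in CDH11+/+ replicate 1. Replicate 1 was the highest library of its own label in 7 of these 10 markers. It was so in 32.3% of all tested genes and in 63.9% of the tested integrin and laminin subunits. Of 6 neutrophil markers 2 passed the filter, and Ly6g, Cxcr2 and Mpo had at most 7 counts in any library. Of 7 platelet markers 2 passed, with a summed level of 8.86 to 13.0 CPM in libraries labelled CDH11-/- and 7.67 to 16.1 in libraries labelled CDH11+/+, beside Itga2b at 4.89 ± 0.664 CPM in libraries labelled CDH11-/- and 5.43 ± 0.481 CPM in libraries labelled CDH11+/+ (SD, n = 4 each). Summed CPM of 6 B and plasma cell markers were 203 to 258 in libraries labelled CDH11-/- and 10.6 to 106 in libraries labelled CDH11+/+. Of the 5 tested, 5 log2 fold changes were positive, with a median of 0.69, and 0 passed in edgeR. The sum of 8 T and NK cell markers was 118 to 179 CPM in libraries labelled CDH11-/- and 109 to 144 CPM in libraries labelled CDH11+/+. Whether these cells contribute to any of the values was not tested.

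Laminin chains gave 6 positive and 5 negative log2 fold changes, and 6 of 11 reached an unadjusted p under 0.05, 4 higher and 2 lower, where 14.1% of all tested genes did (6.62% higher and 7.46% lower). The lower pair were alpha chains of epithelium. Lama1 (ENSMUSG00000032796, chromosome 17, 67697259 to 67822647, plus strand), the alpha1 chain of early tubular basement membrane, had 17.6, 19.3, 17.6 and 20.5 CPM in libraries labelled CDH11-/-, against 20.3, 28.9, 22.2 and 28.0 CPM in libraries labelled CDH11+/+. CDH11+/+ replicate 1 was just below the highest library labelled CDH11-/-, and the other 3 were above all libraries labelled CDH11-/-. The log2 fold change was −0.41 ± 0.12 (± SE, adjusted p = 0.159 in edgeR), the smallest p of all members, with a 95% interval of −0.67 to −0.15. It passed in 2 of 18 alternatives, with limma-voom (−0.49, adjusted p = 0.0271) and without replicate 1 (−0.48, edgeR adjusted p = 0.0236). The proximal tubule markers, whose sums are given above, had negative log2 fold changes in 10 of 10 genes, with a median of −0.68, and their part in the Lama1 value was not tested. Lama3, the alpha chain of the epithelial anchoring laminin, averaged 24.2 ± 2.97 CPM in libraries labelled CDH11-/- and 29.7 ± 5.11 CPM in libraries labelled CDH11+/+ (SD, n = 4 each), or −0.29 ± 0.13 (± SE, adjusted p = 0.339 in edgeR) on the log2 scale.

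Of the remaining alpha chains Lama2 was positive, and Lama4 and Lama5 were near 0. Lama2 (ENSMUSG00000019899, chromosome 10, 26980036 to 27619758, minus strand), the alpha2 chain of muscle and mesangium, had 25.4, 34.5, 35.3 and 33.6 CPM in libraries labelled CDH11-/-, against 29.2, 22.6, 23.6 and 26.5 CPM in libraries labelled CDH11+/+. Of its libraries labelled CDH11-/- 3 were above all libraries labelled CDH11+/+ and the fourth, replicate 1, was below 2 of them. The log2 fold change was 0.34 ± 0.12 (± SE, adjusted p = 0.23 in edgeR). Lama5, the main alpha chain of adult kidney, had 281, 285, 271 and 251 CPM in libraries labelled CDH11-/-, against 264, 284, 268 and 299 CPM in libraries labelled CDH11+/+. Its libraries were interleaved, with a 95% interval of −0.18 to 0.11 on the log2 scale. Per kb of exon, Lama5 made up 77.1% ± 1.76 of the summed alpha chain level in libraries labelled CDH11-/- and 75.7% ± 1.09 in libraries labelled CDH11+/+ (SD, n = 4 each). Lama4, an endothelial alpha chain, averaged 10.9 ± 1.17 CPM in libraries labelled CDH11-/- and 11.5 ± 1.75 CPM in libraries labelled CDH11+/+ (SD, n = 4 each). The summed level of 8 endothelial markers was 346.7 to 384 CPM in libraries labelled CDH11-/-. That sum was 267.8 to 309.1 CPM in CDH11+/+ replicates 2 to 4 and 338.6 CPM in CDH11+/+ replicate 1. It was thus higher in every library labelled CDH11-/- than in any labelled CDH11+/+. Of the 8 markers 8 log2 fold changes were positive, with a median of 0.29, and 0 passed in edgeR. At an unadjusted p under 0.05 there were 6, where 14.1% of all tested genes reached that level. The part of these markers in the Lama4 value was not tested.

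**Figure D3:**
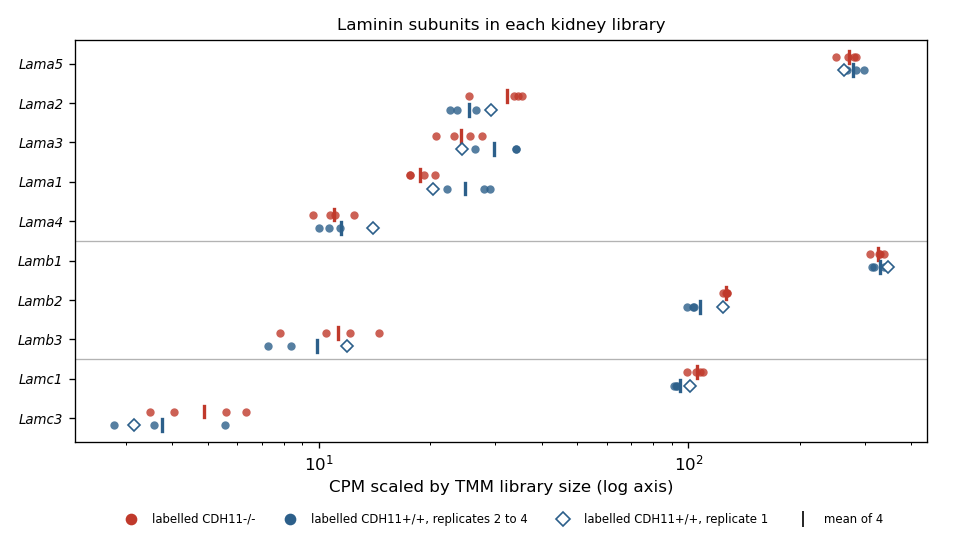
CPM of 10 laminin subunits in each library (x axis, log scale), with alpha, beta and gamma chains from top to bottom. Red circles are libraries labelled CDH11-/-, blue circles CDH11+/+ replicates 2 to 4, open diamonds CDH11+/+ replicate 1 and bars the mean of 4. For Lamb2 the libraries labelled CDH11-/- sit between 123.8 and 127.5 CPM and the diamond at 124.0 CPM, with the other libraries labelled CDH11+/+ near 100.

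Of the 3 beta chains, 1 reached an unadjusted p under 0.05, against 14.1% of all tested genes. Lamb2 (ENSMUSG00000052911, chromosome 9, 108479736 to 108490530, plus strand), the beta2 chain of the glomerular basement membrane, had 127, 126, 127 and 124 CPM in libraries labelled CDH11-/-, against 124, 103, 99.4 and 103 CPM in libraries labelled CDH11+/+. The libraries labelled CDH11-/- agreed closely, CDH11+/+ replicate 1 stood with them, and the other 3 were lower. The log2 fold change was 0.23 ± 0.07 (± SE, adjusted p = 0.183 in edgeR). It passed in 2 of 18 alternatives, with limma-voom (0.28, adjusted p = 0.0244) and without replicate 1 (0.32, edgeR adjusted p = 0.00855). With the authors' factors as offsets it was 0.17 (edgeR adjusted p = 0.527). Nphs1, which encodes the podocyte protein nephrin, had 37.0, 28.1, 36.4 and 28.9 CPM in libraries labelled CDH11-/-, against 23.2, 19.2, 26.3 and 19.4 CPM in libraries labelled CDH11+/+. Summed over 6 podocyte markers the level was 559.9 to 677 CPM in libraries labelled CDH11-/-. It was 419.8 to 535 CPM in CDH11+/+ replicates 2 to 4 and 580.5 CPM in CDH11+/+ replicate 1. The part of these markers in the Lamb2 value was not tested. Lamb1 (ENSMUSG00000002900, chromosome 12, 31265234 to 31329644, plus strand), the beta1 chain of tubular and vascular basement membranes, had 339, 311, 329.7 and 328 CPM in libraries labelled CDH11-/-, against 348, 338, 317 and 314 CPM in libraries labelled CDH11+/+. Its libraries were interleaved, with a log2 fold change of −0.01 ± 0.06 (± SE, adjusted p = 0.954 in edgeR) and an interval of −0.15 to 0.12. Lamb3, the beta chain of the anchoring laminin, averaged 11.2 ± 2.81 CPM in libraries labelled CDH11-/- and 9.84 ± 2.40 CPM in libraries labelled CDH11+/+ (SD, n = 4 each).

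The ratio of Lamb1 to Lamb2 counts within a library does not depend on how libraries are scaled. It was 2.66, 2.46, 2.59 and 2.65 in libraries labelled CDH11-/-, against 2.81, 3.27, 3.19 and 3.05 in libraries labelled CDH11+/+. All 4 libraries labelled CDH11-/- were below all 4 libraries labelled CDH11+/+, replicate 1 included, with a mean difference of −0.25 on the log2 scale. The two-sided exact permutation p was 0.0286, the smallest that 4 against 4 can give, and 0.0857 after Benjamini-Hochberg adjustment over the 6 ratios examined. The difference thus did not pass the correction. A p at this floor can pass over 6 ratios only where most of them share it, so the adjusted value does not weigh the size of the difference. From the authors' normalized values it was −0.27, with an exact permutation p of 0.0857.

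Promoter windows of these beta chain genes are shown because the ratio of their counts did not overlap between the labels. Each runs from 250 bases before to 50 after the start that RefSeq annotates on GRCm38.p6, 5′ to 3′ on the plus strand, at chr12:31265043-31265342 for Lamb1 and chr9:108479612-108479911 for Lamb2. Capitals mark the GC box letters GGGCGG on either strand.
Lamb1: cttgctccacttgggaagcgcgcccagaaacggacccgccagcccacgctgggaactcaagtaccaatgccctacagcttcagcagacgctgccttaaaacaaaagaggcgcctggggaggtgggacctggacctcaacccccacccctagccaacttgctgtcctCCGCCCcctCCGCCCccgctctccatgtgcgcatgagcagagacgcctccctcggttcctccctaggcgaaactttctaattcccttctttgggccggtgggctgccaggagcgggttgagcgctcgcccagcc
Lamb2: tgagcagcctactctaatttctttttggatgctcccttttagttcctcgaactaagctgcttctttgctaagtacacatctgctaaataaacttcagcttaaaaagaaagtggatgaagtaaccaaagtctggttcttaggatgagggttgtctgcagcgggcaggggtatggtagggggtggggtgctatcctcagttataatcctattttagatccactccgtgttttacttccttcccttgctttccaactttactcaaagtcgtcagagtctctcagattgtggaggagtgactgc
The Lamb1 window was 63.7% G or C and held 2 GC boxes, and the Lamb2 window was 44.0% G or C and held 0. Windows were found for 24 of the 38 members, taking the first where a gene has several, and 11 of these (45.8%) held a GC box, against 35.9% of 27025 windows, 1 per gene. The TATA box letters TATAAA were in 0 of 24 member windows and in 14.2% of all windows. A TEAD core, GGAATG, was in 2 of 24, those of Itga10 and Itgb1, and in 14.6% of all windows. Each motif was searched on both strands and counted by itself, so that matches of different motifs may share bases. A match describes the window alone.

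Lamc1 (ENSMUSG00000026478, chromosome 1, 153218922 to 153332786, minus strand), the gamma1 chain of most laminins, had 109.5, 99.2, 108 and 105 CPM in libraries labelled CDH11-/-, against 101, 92.7, 93.1 and 91.3 CPM in libraries labelled CDH11+/+. The libraries labelled CDH11+/+ other than replicate 1 were the 3 lowest, and the log2 fold change was 0.16 ± 0.06 (± SE, adjusted p = 0.26 in edgeR). With the authors' factors as offsets the Lamc1 value was 0.06 (edgeR adjusted p = 0.838). Lamc3 was low, at 4.86 ± 1.33 CPM in libraries labelled CDH11-/- and 3.76 ± 1.23 CPM in libraries labelled CDH11+/+ (SD, n = 4 each).

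**Figure D4:**
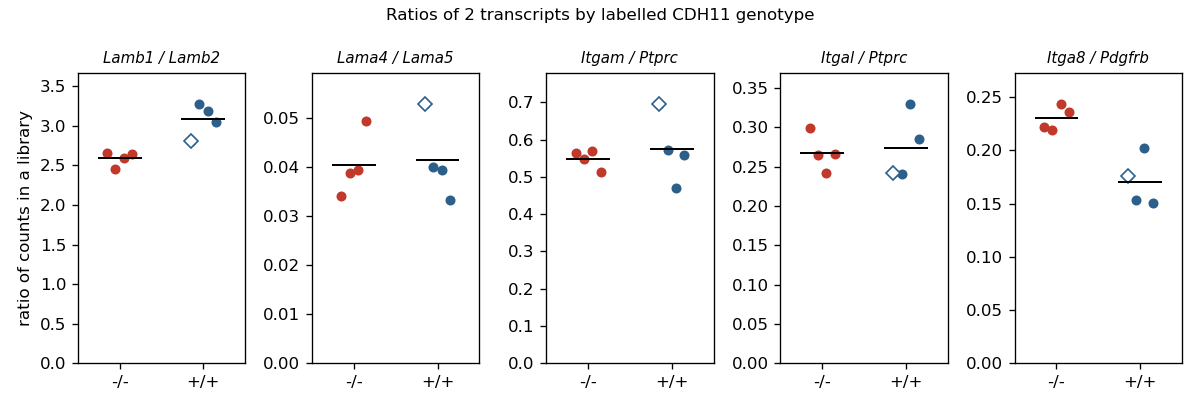
Ratio of the counts of 2 genes in each library (y axes, from 0), for libraries labelled CDH11-/- on the left and libraries labelled CDH11+/+ on the right of each panel. Points are libraries, lines the mean of 4 and the open diamond CDH11+/+ replicate 1. The labels do not overlap for Lamb1 to Lamb2 or for Itga8 to Pdgfrb, and overlap in the other 3 panels.

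Of the other ratios, 1 separated the labels. Itga8 relative to Pdgfrb, a receptor gene of pericytes and mesangial cells, was 0.222, 0.219, 0.243 and 0.236 in libraries labelled CDH11-/-, against 0.176, 0.153, 0.202 and 0.151 in libraries labelled CDH11+/+. All libraries labelled CDH11-/- were higher, by a mean of 0.44 on the log2 scale (two-sided exact permutation p = 0.0286, adjusted 0.0857 over 6 ratios). The separation depended on the denominator. Relative to Pdgfra, a comparison added after the data were seen, Itga8 was 0.502, 0.409, 0.454 and 0.525 in libraries labelled CDH11-/-, against 0.508, 0.458, 0.520 and 0.488 in libraries labelled CDH11+/+. These overlapped, with a difference of −0.07 on the log2 scale (two-sided exact permutation p = 0.514). The ratios of leukocyte integrins to CD45 overlapped between the labels. Itgam to Ptprc was 0.564, 0.548, 0.568 and 0.512 in libraries labelled CDH11-/-, against 0.695, 0.573, 0.471 and 0.557 in libraries labelled CDH11+/+, and the difference of −0.05 on the log2 scale was within the spread (exact permutation p = 0.686). Itgal to Ptprc differed by −0.02 (exact permutation p = 0.943) and Lama4 to Lama5 by −0.03 (exact permutation p = 0.800).

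Genes that work with integrins and laminins were counted in 7 lists of 130 genes, of which 126 were tested. Over all tested genes 47.8% of log2 fold changes were positive, against 86 of 126 in these lists. In the lists 1 gene rose and 1 fell, or 1.59%, against 0.719% of all tested genes. Ccn1, a secreted matrix protein that binds alphav and alpha6 integrins, had 228, 168, 223 and 226 CPM in libraries labelled CDH11-/-, against 128, 103, 103 and 116 CPM in libraries labelled CDH11+/+. It rose by 0.91 ± 0.11 (± SE, adjusted p = 0.00571 in edgeR) on the log2 scale, and CDH11+/+ replicate 1 was below every library labelled CDH11-/-. Tinag, a basement membrane protein of tubules, had 47.1, 46.4, 45.0 and 43.1 CPM in libraries labelled CDH11-/-, against 53.1, 71.0, 64.9 and 64.8 CPM in libraries labelled CDH11+/+. All libraries labelled CDH11-/- were below all libraries labelled CDH11+/+, and it fell, with a log2 fold change of −0.48 ± 0.08 (± SE, adjusted p = 0.0289 in edgeR). The Tinag call held in 9 of 18 alternatives (adjusted p up to 0.123) and the Ccn1 call in all 18.

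Basement membrane partners had a median log2 fold change of 0.18, with 19 of 26 positive. Besides Tinag, the smallest p was that of Smoc2, a calcium-binding matrix protein, at 41.9 ± 3.53 CPM in libraries labelled CDH11-/- and 29.2 ± 5.23 CPM in libraries labelled CDH11+/+ (SD, n = 4 each) and a log2 fold change of 0.52 ± 0.12 (± SE, adjusted p = 0.0882 in edgeR). Hspg2, which encodes perlecan, was at 199 ± 12.0 CPM in libraries labelled CDH11-/- and 168 ± 10.2 CPM in libraries labelled CDH11+/+ (SD, n = 4 each), or 0.24 ± 0.07 (± SE, adjusted p = 0.14 in edgeR) on the log2 scale. Among the 27 matrix ligands, 25 were tested (median 0.16, 19 positive). Ccn2, a close relative of Ccn1, was at 424 ± 68.8 CPM in libraries labelled CDH11-/- and 224 ± 58.6 CPM in libraries labelled CDH11+/+ (SD, n = 4 each), with a log2 fold change of 0.92 ± 0.19 (± SE, adjusted p = 0.0744 in edgeR).

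Adhesion adaptors had 27 of 35 positive values and a median log2 fold change of 0.09. Fblim1, a filamin-binding adaptor also called migfilin, was at 78.7 ± 3.64 CPM in libraries labelled CDH11-/- and 60.4 ± 6.42 CPM in libraries labelled CDH11+/+ (SD, n = 4 each), or 0.38 ± 0.08 (± SE, adjusted p = 0.0533 in edgeR) on the log2 scale. Fermt1, the epithelial kindlin, was at 52.6 ± 3.67 CPM in libraries labelled CDH11-/- and 63.6 ± 3.58 CPM in libraries labelled CDH11+/+ (SD, n = 4 each), or −0.27 ± 0.07 (± SE, adjusted p = 0.108 in edgeR). In the list of integrin activation and trafficking, 11 of 12 genes were tested, with a median of 0.00, and the smallest p were those of Snx31 at 0.91 ± 0.27 (± SE, adjusted p = 0.177 in edgeR) and Dab2 at −0.17 ± 0.10 (± SE, adjusted p = 0.501 in edgeR).

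Of 8 tested counter-receptors on cells, 5 were negative. Vcam1, the ligand of alpha4 beta1 and a gene of injured tubule, was at 380.2 ± 40.1 CPM in libraries labelled CDH11-/- and 523 ± 68.2 CPM in libraries labelled CDH11+/+ (SD, n = 4 each), or −0.46 ± 0.10 (± SE, adjusted p = 0.0744 in edgeR) on the log2 scale. Icam1, the ligand of beta2 integrins, was at 173 ± 2.44 CPM in libraries labelled CDH11-/- and 207 ± 13.8 CPM in libraries labelled CDH11+/+ (SD, n = 4 each), or −0.26 ± 0.06 (± SE, adjusted p = 0.0845 in edgeR). Other laminin receptors (14 genes) had a median of −0.01, with Sdc4 at −0.15 ± 0.07 (± SE, adjusted p = 0.352 in edgeR) and Pomt1 at −0.20 ± 0.10 (± SE, adjusted p = 0.39 in edgeR). The 7 tetraspanins had a median of 0.03, with Cd63 at −0.17 ± 0.07 (± SE, adjusted p = 0.331 in edgeR) and Cd37 at 0.29 ± 0.14 (± SE, adjusted p = 0.396 in edgeR).

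The authors' normalized values divide each count by a factor that differs between genes. Relative to the median factor of its library, this factor spread by more than 1.5 times between libraries for 9 of the 35 members with at least 10 counts everywhere (25.7%), against 10.8% of 14733 genes. The 9 were Itga10, Itga2b, Itga7, Itgb4, Itgb7, Lama1, Lama4, Lama5 and Lamb3. For Lama4 it ran from 0.604 to 2.05 in libraries labelled CDH11-/- and from 0.811 to 1.60 in libraries labelled CDH11+/+. With these factors as edgeR offsets 0 members passed, where 0.315% of all genes did. The Lama1 value was −0.65 (edgeR adjusted p = 0.406) and those of Itgb4 and Lamc1 were each 0.06, while that of Itga8 stayed at 0.41.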

How the data were processed

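Kidney RNA libraries of 8 mice were grouped by labelled genotype. No litter, batch or replicate number is labelled, so a replicate number only names a library, and p-values measure the spread between mice. The authors deposited whole-number counts per Ensembl gene. They also deposited a normalized signal, which is the count divided by a factor of each gene and library. DRAGEN and DESeq2 are listed as tools and mm10 as build, per the submitters' processing notes. Versions, annotation, read assignment and strand setting were not given in the sources used here. Reads of overlapping genes on opposite strands may therefore not have been told apart, which touches the 7 members whose exons overlap another counted gene (Itga4, Itga7, Itga8, Itgad, Itgav, Lama3 and Lamc3). Whether the counts are rounded estimates is not given either. Gene names, coordinates and merged exon lengths came from GENCODE M21 (GRCm38). There were 0 columns of other samples.

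The main test was the edgeR 4.0.16 quasi-likelihood test (R 4.3.3) with TMM scaling, filterByExpr, robust moderation and genotype as the only term, adjusted by Benjamini-Hochberg over 15852 genes at 0.05. Standard errors were taken as the size of the log2 fold change over the root of the F statistic. The common coefficient of variation was 13.5%. Alternatives were DESeq2 1.42.0, limma 3.58.1 (voom with quality weights, and log2 of the authors' normalized values plus 1), 1 surrogate variable (sva 3.50.0), other scalings and filters (none, or 1 CPM in 4 libraries), the authors' factors as offsets and leaving out each library. Ratios of 2 genes were compared by two-sided exact permutation. Every member enters the counts, and 1 laminin chain, with 1 of the 6 ratios, is not reported here by itself. Of each of 7 pathway lists, genes past the threshold and otherwise the 2 of smallest p were named, and of 15 marker lists those set beside a member. Ccn2, Smoc2 and Hspg2 were added after their values were seen. Members and lists were chosen with earlier results of these data known. Totals of 10675309 to 18539479 counts leave genes near 1 CPM limited by counting error.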

Additional observations from a re-analysis of the deposited data

Results flagged for a closer look

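Dixon's test at the 5% level was applied to each label's 4 libraries for the 36 tested members, 72 groups in all. It marked 7 single libraries as standing apart. The level means about 1 group in 20 for independent normal values, while here the same libraries recur across genes. The share over all tested genes was not computed, so the count is not read as a trait of these members. Among libraries labelled CDH11-/-, replicate 1 was the lowest for Itga1 at 158 CPM (the others 185.0 to 189.7) and for Lama2 at 25.4 CPM (the others 33.6 to 35.3). Replicate 2 of that label was the lowest for Itga6 at 123 CPM (the others 140.5 to 142). Replicate 4 of that label was the highest for Itgb2 at 123 CPM (the others 84.9 to 89.2) and for Itgb7 at 33.6 CPM (the others 23.0 to 24.8). Among libraries labelled CDH11+/+, replicate 1 was the highest for Itgb1 at 657 CPM (the others 523 to 534) and for Lamb2 at 124.0 CPM (the others 99.4 to 103).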

How the results depend on the processing

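No paired analysis was possible because the labels carry no replicate numbers and the numbers used here only name libraries in accession order. The counts of members that rose and fell were 0 and 0, and became 2 and 1 with limma-voom, while leaving out 1 library gave 0 to 7 that rose and 0 to 1 that fell. Over all genes the count of 114 became 208 with no filter, 515 with DESeq2, 679 with limma-voom, 54 with limma on the authors' normalized values, 50 with the authors' factors as offsets, 535 with 1 surrogate variable and 26 to 1004 without 1 library. Over 18 alternatives for each of 36 members, 605 of 648 values kept direction and side of the threshold, 11 passed it and 32 changed sign, in 11 members whose log2 fold change was at most 0.19 in size. With limma on the authors' values and with their factors as offsets, log2 fold changes were 0.17 and 0.13 for Itga2b, 0.03 and 0.05 for Itgax, −0.20 and −0.14 for Itgb7, 0.20 and 0.29 for Lama4, and 0.05 and 0.04 for Lama5, and the Lama4 to Lama5 ratio from those values was 0.15. With 1 surrogate variable they were −0.01 for Itga9, −0.06 for Itgam, −0.04 for Itgb2, −0.02 for Itgb3 and −0.02 for Itgb7, with a median of −0.01 over the members. With library size alone they were 0.01 for Lama5 and 0.04 for Lamb1, and with limma-voom −0.01 for Itgb7 and 0.01 for Lamb1. Without 1 library they ran over −0.03 to 0.32 for Itga10, −0.04 to 0.26 for Itgam, −0.23 to 0.01 for Itgax, −0.08 to 0.12 for Itgb2, −0.04 to 0.07 for Itgb3, −0.08 to 0.14 for Itgb7, −0.13 to 0.05 for Lama4, −0.06 to 0.01 for Lama5 and −0.03 to 0.03 for Lamb1. The log2 ratios then ran over −0.13 to 0.10 for Lama4 to Lama5, −0.14 to 0.04 for Itgam to Ptprc and −0.08 to 0.07 for Itgal to Ptprc. With Pdgfra as denominator, chosen after seeing the data, the log2 ratio of Itga8 was −0.07 in place of 0.44. The cause of these changes was not tested. An exact test of 3 against 4 libraries cannot go below 0.0571, and library size alone moved the median of all genes to 0.04.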

Other observations

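Some soluble ligands of integrins are given here with genes named after their values were seen. The fibrinogen chain genes Fga, Fgb and Fgg, whose products bind beta2 and beta3 integrins, had negative log2 fold changes, and 0 of the 3 passed in edgeR. Fgg had 15.5, 53.0, 16.6 and 7.95 CPM in libraries labelled CDH11-/-, against 231, 213, 119.7 and 33.2 CPM in libraries labelled CDH11+/+, with a log2 fold change of −2.68 ± 0.81 (± SE, adjusted p = 0.235 in edgeR), and it passed with DESeq2 (adjusted p = 0.0229). Fga had 42.6, 128, 54.3 and 36.5 CPM in libraries labelled CDH11-/-, against 309, 259, 149 and 72.6 CPM in libraries labelled CDH11+/+, with a log2 fold change of −1.59 ± 0.60 (± SE, adjusted p = 0.318 in edgeR). Fgb had 0.201 to 46.9 CPM in libraries labelled CDH11-/-, against 5.78 to 41.9 CPM in libraries labelled CDH11+/+, with a log2 fold change of −0.74 ± 1.34 (± SE, adjusted p = 0.854 in edgeR). Vtn, which encodes vitronectin, a ligand of alphav integrins, did not pass the filter. It had 16.4 CPM in CDH11-/- replicate 2 and 0.454 to 0.581 CPM in the other libraries labelled CDH11-/-, against 0.185 to 0.694 CPM in libraries labelled CDH11+/+. CDH11-/- replicate 2 also held the highest value of Fgb, and the highest of its label for Fga and Fgg.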
